A study of Mus musculus with 9 samples.

Results

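The cells described here are those that the authors annotated as oligodendrocytes (OLG) in single-cell RNA sequencing of mouse brain, 346 of 72543 cells, or 0.477%. They were taken by that annotation alone. Most of them did not carry the transcripts of myelin. 42 OLG cells (12.1%) were rich in myelin gene transcripts and 304 (87.9%) were not, and the larger set shared with the smaller one the tight junction gene *Cldn11*. All 174 OLG cells of the 3 libraries numbered 2 belonged to the larger set.

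Oligodendrocytes wrap axons of the central nervous system in myelin, a compacted membrane that is rich in lipid and in a small number of proteins. They arise from oligodendrocyte precursor cells (OPC), which carry *Pdgfra* and *Cspg4*. On differentiation these genes are shut off and the genes of myelin proteins, such as *Mbp*, *Mog* and *Mag*, are strongly switched on. *Cldn11* encodes claudin 11, which seals the layers of central myelin and also forms tight junctions in the testis, the inner ear and the meninges.

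The mice were male C57BL/6J mice, given as C57BL/6 in the labels. Young adult mice were 2 to 3 months old, aged mice were 18 to 20 months old, and exenatide-treated aged mice received the GLP-1 receptor agonist exenatide intraperitoneally at 5 nmol per kg per day for 4 to 5 weeks from an age of 17 to 18 months. Each group had 3 libraries, numbered 1, 2 and 4, and the labels name 3 mice for each library. The text of the study gives a number of young adult and of aged mice that does not match this, so the number of mice behind a library is uncertain. In the deposited table of cells the libraries of one number form one batch (A, B and C for 1, 2 and 4). The whole brain without the cerebellum was dissociated and myelin debris was removed with magnetic beads before encapsulation. This step may bear on the counts of oligodendrocytes below, and its effect was not tested.

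The 3 young adult libraries held 6, 88 and 76 OLG cells (numbers 1, 2 and 4), the aged libraries 2, 41 and 23, and the exenatide-treated aged libraries 14, 45 and 51. The summed OLG cells gave 5673 to 161378 unique molecular identifiers (UMIs) per library, and only the 7 libraries with at least 10 OLG cells were compared between conditions. Levels are in CPM (a gene's share of all UMIs in the summed cells, times 1000000). A UMI marks the 3′ end of 1 transcript, so levels were not divided by gene length. Across all cells 2209 barcode sequences occurred in more than 1 library. 20 OLG cells had such a barcode, and no barcode was shared by OLG cells of different libraries.

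The label was checked first in each library, on the 3 markers *Cldn11*, *Mbp* and *Mog*. In young adult OLG *Mbp* stood at 2384, 6.2 and 1609 CPM in the libraries numbered 1, 2 and 4, in aged OLG at 176, 0 and 2123 CPM, and in exenatide-treated aged OLG at 1511, 0 and 2353 CPM. *Mog*, which encodes a glycoprotein of the outer myelin surface, stood at 281, 0 and 304 CPM in the young adult, at 0, 0 and 257 CPM in the aged and at 94.4, 0 and 277 CPM in the exenatide-treated aged libraries. The libraries numbered 2 were thus at or near 0 for both, in each group. *Cldn11* was instead found in all 9 libraries, at 701, 669 and 1616 CPM in young adult, 705, 1306 and 1689 CPM in aged and 913, 1132 and 1727 CPM in exenatide-treated aged OLG.

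A count of myelin genes in each cell showed that this difference lay between cells and not only between libraries. Of the 9 other proteins of the myelin list, among them *Mbp*, *Mobp*, *Mog*, *Mag*, *Cnp*, *Mal*, *Opalin* and *Tspan2*, 235 OLG cells had a UMI of none, 61 of 1 and 8 of 2. No OLG cell had 3 or 4, and 42 cells had 5 to 9. A limit of 5 genes was therefore set, after these counts were seen, and the cells are called myelin-positive and myelin-negative OLG below. With each cell thinned to 500 UMIs, the myelin-positive cells had a median of 6 of the 9 genes, with a lowest value of 2. The myelin-negative cells had at most 2, a value that thinning could not raise. The gap between the sets thus closed at 2 genes. The myelin-positive cells held 38 to 265 UMIs of the 9 genes each, and the myelin-negative cells 0 to 4. The myelin-positive cells had a median of 2110 UMIs (931 to 4147) and the myelin-negative cells 1620.5 UMIs (582 to 5209). Within the libraries numbered 4 the median mitochondrial share was 8.68%, 11.2% and 12.4% in myelin-positive and 10.9%, 9.75% and 10.96% in myelin-negative cells of the young adult, the aged and the exenatide-treated library, so that the sets overlapped.

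**Figure D1:**
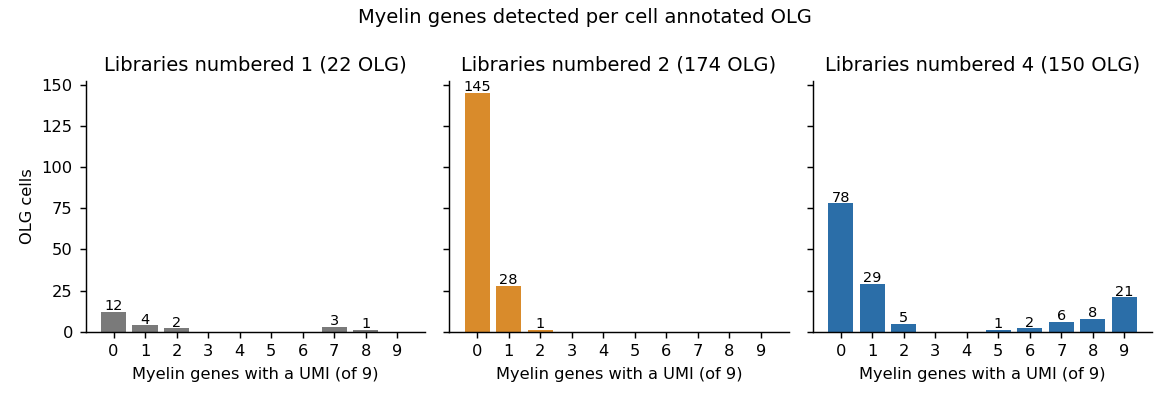
Number of OLG cells (vertical axis) by the number of myelin genes, of 9 that do not include Cldn11, with at least 1 UMI in the cell (horizontal axis), in the libraries numbered 1, 2 and 4. Cells with 3 or 4 genes are missing from all panels, and the 174 cells of the libraries numbered 2 all lie at 0 to 2 genes.

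Myelin-positive OLG came from 5 of the 9 libraries. There were 1 and 14 in the young adult libraries numbered 1 and 4, 6 in the aged library numbered 4, and 3 and 18 in the exenatide-treated aged libraries numbered 1 and 4. They made up 25.3% of the OLG of the libraries numbered 4 (38 of 150, exact binomial 95% interval 18.6% to 33.1%) and 18.2% of those numbered 1 (4 of 22, 5.19% to 40.3%). In the libraries numbered 2 there were 0 of 174, which allows a share of up to 1.72% (2.10% by the exact interval), and 0 of all 22486 cells, which allows up to 0.0133% (3 cells of the total). Such intervals and limits cover counting error only. Outside the OLG annotation only 3 cells of the series had 5 or more of the 9 genes, 2 OPC and 1 endothelial cell (EC), and none of them was in a library numbered 2. The deposited clusters split the OLG cells in nearly the same way, since all 31 cells of cluster 36 were myelin-positive and all 303 OLG cells of cluster 34 were myelin-negative. The other 12 OLG cells lay in 6 clusters made up mainly of astrocytes, microglia or OPC, and 11 of them were myelin-positive.

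*Mbp* was also lower in ECs of the libraries numbered 2, a cell type that does not make it. In ECs, *Mbp* ranged from 6.75 to 32.2 CPM in the libraries numbered 2 and from 82.4 to 183 CPM in those numbered 1 and 4, without overlap. The lack of myelin transcripts in the libraries numbered 2 cannot be told apart from their batch.

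Myelin-positive OLG carried the genes of mature oligodendrocytes, together with astrocyte and microglial markers that are given below. *Mbp*, which encodes the protein that compacts the inner membrane faces, stood at 7073, 7930 and 6828 CPM in the young adult, aged and exenatide-treated aged libraries numbered 4. *Mog* stood at 1408, 1015 and 827 CPM, and *Cldn11* at 3474, 3680 and 3227 CPM. These genes were abundant in each of the 3 libraries. The 20 genes that stood highest in myelin-positive OLG against the highest other cell type, among those with at least 100 CPM, included *Mog*, *Opalin*, *Hapln2*, *Ermn*, *Aspa*, *Gjb1*, *Plekhh1*, *Lgi3* and *Cnp*. *Aspa* encodes the enzyme that cleaves N-acetylaspartate, and *Gjb1* encodes the gap junction protein connexin 32.

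Each contrast between annotated or split cell sets below is a description without a test, because the cells were clustered on these genes. A gene is called higher or lower where all libraries of one side lay above or below all of the other and the ratio of the mean levels was at least 2. Against OPC of the same 3 libraries, 568 of 6686 genes (8.5%) were higher in myelin-positive OLG and 1345 (20.1%) were lower. All 10 myelin protein genes were higher, which for the 9 that defined the set restates the choice of cells, with a mean ratio of 34.2 for *Mbp* and 72.7 for *Cldn11*. Of 12 genes of myelin junctions and cytoskeleton 10 were higher. Among them were *Ermn*, which stood at 814, 1142 and 1280 CPM and at 0 to 1.76 CPM in OPC, and the septin gene *Sept4*, which stood at 1909, 2538 and 1787 CPM. Of 14 compared genes of myelin lipid synthesis 11 were higher, including *Ugt8a* and *Fa2h* of galactolipid synthesis and the desaturase gene *Scd2*, at 2066, 2221 and 2561 CPM. The median log2 ratio was 5.93 for myelin proteins, 4.11 for junctions and cytoskeleton and 1.62 for lipid synthesis, against -0.18 over all genes compared.

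The genes of earlier stages were lower in myelin-positive OLG. All 10 precursor genes were lower than in OPC. *Pdgfra*, the receptor that keeps precursors dividing, stood at 62.6, 0 and 0 CPM against 999 to 1465 CPM in OPC of the same libraries, and *Tnr* and *C1ql1* had no UMI. Of 7 compared genes of newly formed oligodendrocytes 5 were lower and none was higher, and *Gpr17* and *Bmp4* had no UMI in any myelin-positive cell. The transcription factors divided, with *Myrf*, *Nkx6-2* and *St18* higher and *Olig1*, *Olig2* and *Nkx2-2* lower than in OPC. *Myrf*, which drives myelin gene transcription, stood at 188, 254 and 213 CPM. *Sox10*, needed at all stages of the lineage, stood at 282, 63.4 and 187 CPM in myelin-positive OLG and at 270 to 367 CPM in OPC, so that the libraries overlapped.

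For 9 of the myelin proteins the low levels in myelin-negative OLG restate the choice of cells. In the 7 libraries where 10 or more of them were found, *Mog*, *Opalin* and *Tspan2*, which defined the set, stood at 0 CPM in each, as did *Ermn* and *Myrf*, which did not. *Mbp* ranged from 0 to 151 CPM, with the 3 lowest values in the libraries numbered 2. A UMI of *Mbp* was found in 19.6% of myelin-negative OLG of the libraries numbered 4 (median 1802 UMIs per cell) and in 22.4% of their ECs (median 1503 UMIs), and after thinning to 500 UMIs in 3.57% and 8.68%. In the libraries numbered 2 the shares were 0.575% (median 1467 UMIs) and 2.39% (median 1111 UMIs). *Mbp* is one of the 9 genes whose absence defined the myelin-negative cells, and ECs were not chosen on it, so these shares are given as a description. *Cldn11* was found in 57.2% of myelin-negative OLG (174 of 304, 51.5% to 62.9%), in 97.6% of myelin-positive OLG and in 0.152% of ECs, or after thinning in 31.6%, 78.6% and 0.0539%. In the 7 libraries it ranged from 669 to 1306 CPM, below the 3227 to 3680 CPM of myelin-positive OLG and above the highest other type, OPC, at 24.7 CPM.

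By the same rule over all libraries the 20 leading genes of myelin-negative OLG were *Prg4*, *Slc47a1*, *Dapl1*, *Car13*, *Slc26a7*, *Tspan8*, *Cdh1*, *Lypd2*, *Cldn11*, *Ahnak2*, *Nov*, *Sfrp4*, *Tspan11*, *Tnfrsf11b*, *Adamtsl3*, *Hhip*, *Eya2*, *Bnc2*, *Slc26a2* and *Igfbp6*. 18 of these 20 had no UMI in any of the 42 myelin-positive cells, the exceptions being *Cldn11* and *Hhip*. *Prg4* encodes lubricin, a surface lubricant. It stood at 657 and 716 CPM in the young adult libraries numbered 2 and 4, at 860 and 905 CPM in the aged, and at 1850, 1555 and 1265 CPM in the exenatide-treated aged libraries numbered 1, 2 and 4. *Slc47a1* encodes an exporter of organic cations, and its levels in the same order were 545 and 638, 335 and 689, and 148, 582 and 565 CPM. No other cell type exceeded 2.62 CPM for *Prg4* or 2.58 CPM for *Slc47a1*. *Cdh1*, which encodes E-cadherin, an adhesion protein of epithelia, ranged from 74.0 to 188 CPM, with at most 2.97 CPM elsewhere.

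Some abundant genes of myelin-negative OLG were also found in other annotated types, at lower levels. *Mgp*, which encodes an inhibitor of calcification, had a UMI in 98.4% of them and 4.76% of myelin-positive OLG, and ranged from 6606 to 13212 CPM, against 1354 CPM in pericytes, the highest other type. *Ptgds*, which encodes prostaglandin D synthase, ranged from 10019 to 32988 CPM, and myelin-positive OLG (10214 to 14644 CPM) lay within that range. *Rspo3*, which encodes an enhancer of Wnt signalling, ranged from 448 to 1029 CPM, with 57.6 CPM in tanycytes, the highest other type, and no UMI in myelin-positive OLG.

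**Figure D2:**
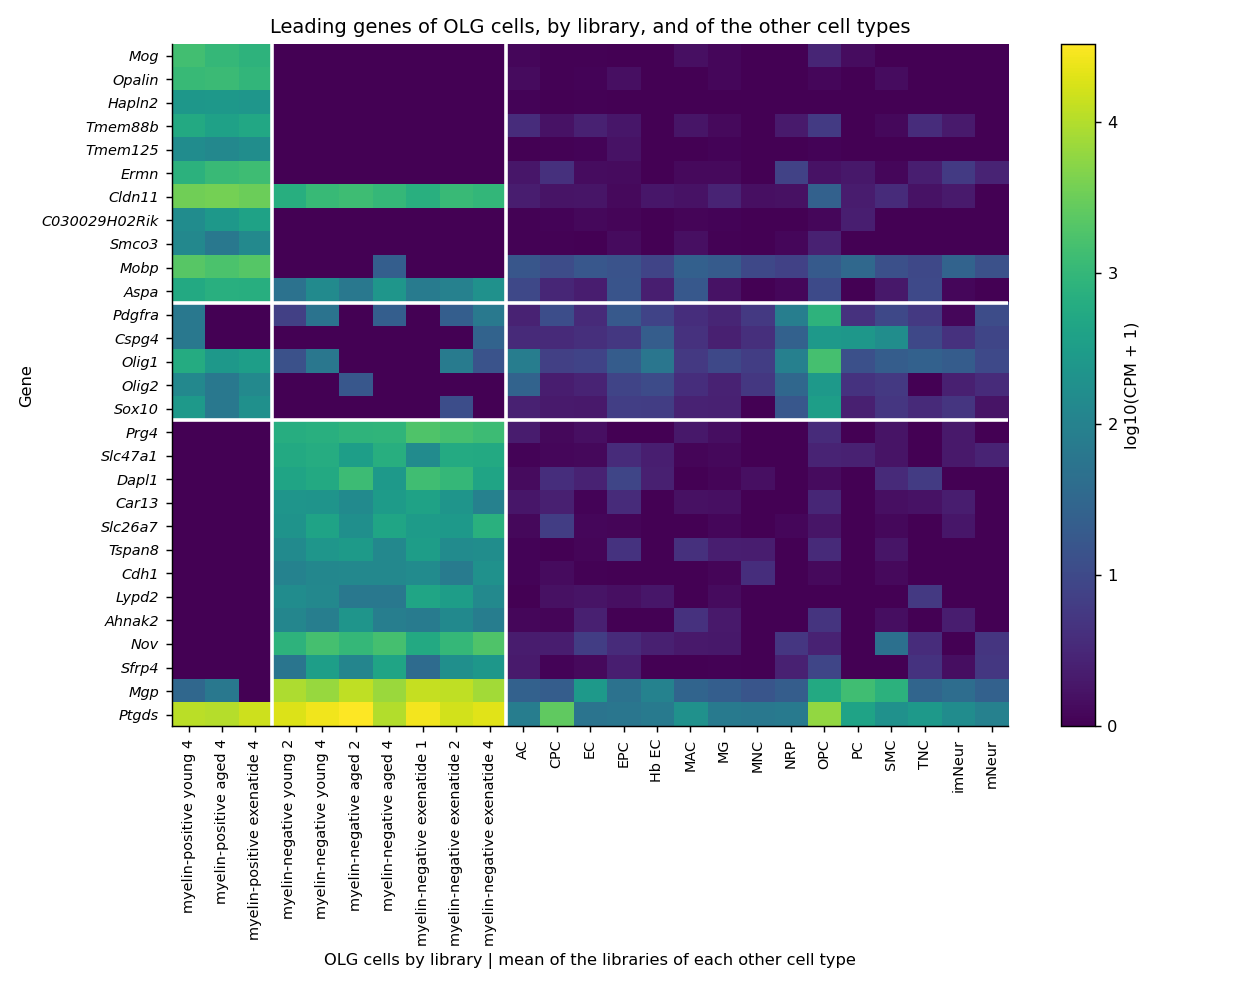
Levels, as log10(CPM + 1), of leading genes of myelin-positive OLG (upper rows), 5 genes of the oligodendrocyte lineage (middle rows) and leading or abundant genes of myelin-negative OLG (lower rows). Columns are the 3 myelin-positive and 7 myelin-negative libraries and then the mean of the libraries of each other annotated cell type. Cldn11 and Ptgds are bright in both OLG sets, and the myelin-negative columns of the libraries numbered 2 look like those of the other numbers.

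The 174 myelin-negative cells of the libraries numbered 2 and the 112 of those numbered 4 were alike. Across 3164 genes, which are not independent, the log2 levels of the 2 sets of libraries correlated at a Pearson's r of 0.906 (Spearman's rho 0.84). The highest r of the number 2 set with another annotated type was 0.678, with choroid plexus cells.

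Markers of other cells were counted in the same cells. Of 5 genes of the arachnoid barrier list, 4 were present in myelin-negative OLG (*Slc47a1*, *Dpp4*, *Cdh1* and *Ppp1r1a*) and *Krt18* had no UMI. Their summed level ranged from 481 to 991 CPM over the 7 libraries, against 336 CPM in choroid plexus cells, the highest other type, and *Slc47a1* gave the most. All 6 meningeal fibroblast genes were present, at a summed 370 to 1509 CPM with *Col1a2* the most abundant, against a mean of 1773 CPM in cells annotated OPC over all 9 libraries. All 4 tanycyte genes were present, at 552 to 1134 CPM, a range that holds the 913 CPM of tanycytes. *Rspo3* gave a mean of 716 CPM of this and stood at only 57.6 CPM in tanycytes. Of the Schwann cell genes *Prx* and *Ncmap* had no UMI, and of the ependymal genes *Foxj1*, *Ccdc153*, *Tmem212* and *Dynlrb2* had none. Markers of the abundant brain cells were present at a small part of their level in those cells. In myelin-negative OLG the microglial list summed to a mean of 1459 CPM (25946 CPM in microglia), the astrocyte list to 870 CPM (11025 CPM in astrocytes) and the endothelial list to 781 CPM (14477 CPM in ECs). In myelin-positive OLG, 4 of the 5 arachnoid barrier genes and 5 of the 6 meningeal fibroblast genes had no UMI. Their astrocyte list summed to a mean of 2348 CPM and their microglial list to 1167 CPM over the libraries numbered 4. By the rule above 2 of the 6 astrocyte genes (*Slc1a3* and *Aqp4*) were higher in them than in OPC. Their highest Pearson's r with another annotated type was 0.695, with astrocytes, followed by 0.689 with OPC. No cell type was assigned to the myelin-negative cells here.

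**Figure D3:**
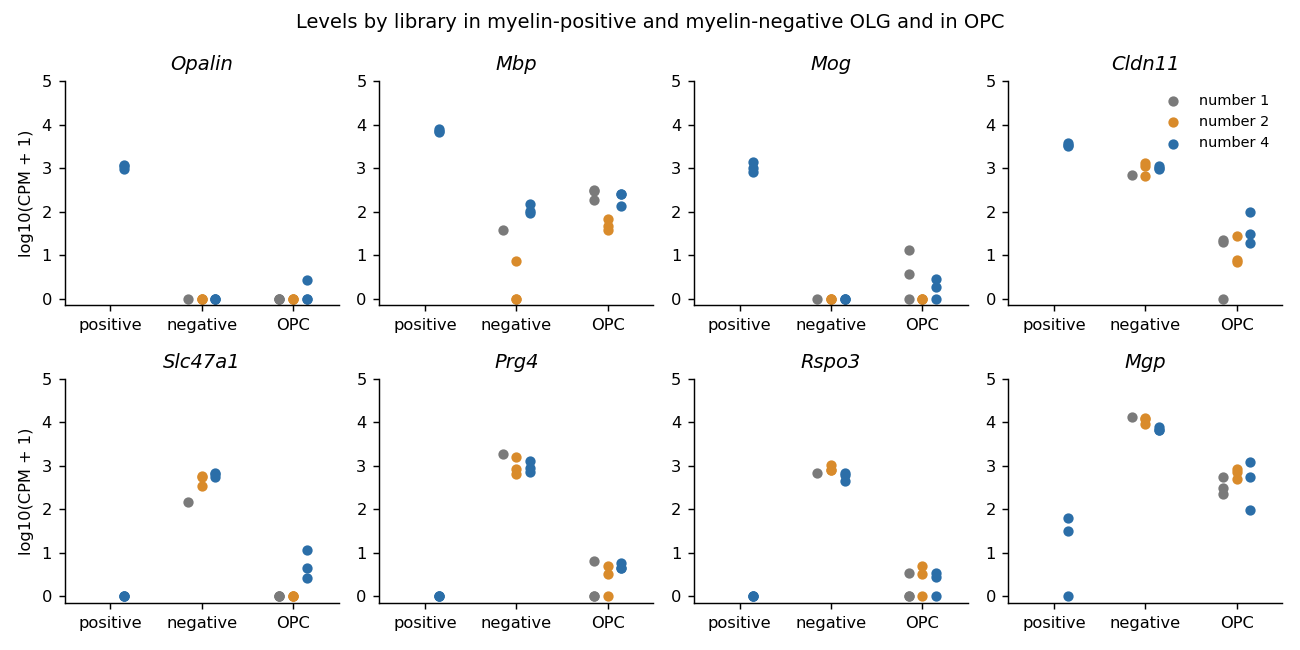
Levels, as log10(CPM + 1), of 4 genes of the OLG annotation or of myelin (upper row) and 4 genes of myelin-negative OLG (lower row) in myelin-positive OLG, myelin-negative OLG and OPC. Each point is a library, coloured by its number, and sets of OLG cells are shown for libraries with at least 10 myelin-negative cells or, for myelin-positive cells, numbered 4. Opalin, Mbp and Mog are among the genes that defined the sets; Cldn11, which is not, lies above 600 CPM in both.

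The promoters of the shared gene *Cldn11* and of *Opalin*, one of the 9 genes that defined the sets, are shown as genomic context. *Cldn11* lies on chromosome 3 (31149920 to 31164324, plus strand, GRCm38) and *Opalin*, which encodes a membrane protein of mature oligodendrocytes, on chromosome 19 (41061710 to 41077113, minus strand). The 250 bases before the RefSeq start of each (chr3:31149670-31149919 and chr19:41077114-41077363, GRCm38.p6) are written 5′ to 3′ on the strand of the gene, with matches to ACAAAG, a core bound by SOX proteins, in capitals. The reverse complement CTTTGT was searched as well.
Cldn11: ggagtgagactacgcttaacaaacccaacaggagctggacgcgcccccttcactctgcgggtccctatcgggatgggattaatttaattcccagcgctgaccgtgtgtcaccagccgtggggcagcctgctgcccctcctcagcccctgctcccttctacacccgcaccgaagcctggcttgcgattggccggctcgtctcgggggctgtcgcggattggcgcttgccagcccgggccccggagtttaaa
Opalin: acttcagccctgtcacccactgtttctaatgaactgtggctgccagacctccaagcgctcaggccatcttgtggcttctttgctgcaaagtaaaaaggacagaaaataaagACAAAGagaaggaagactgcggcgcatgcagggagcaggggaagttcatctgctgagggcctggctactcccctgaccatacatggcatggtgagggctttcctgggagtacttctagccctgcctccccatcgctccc
The motif had 1 match in the *Opalin* window and 0 in that of *Cldn11*. Of the 10 myelin protein genes 8 had a promoter in the RefSeq table, and 5 of these held the motif at 1 or more of their starts (6 of 11 starts). *Mog* and *Mal* held none, like *Cldn11*. Of the 20 leading genes of myelin-negative OLG 9 had a promoter there, and 1 held the motif. Over all 32851 starts in the table the share was 16.5%.

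Against OPC, all OLG together showed a mixture of both sets. Over the 4 OLG libraries numbered 1 or 4 with at least 10 cells and the 6 OPC libraries of these numbers, 384 of 7171 genes were higher in OLG (5.35%) and 828 were lower (11.5%). With a ratio of at least 4 these were 242 (3.37%) and 593 (8.27%), and over all libraries 247 (3.51%) and 562 (7.98%) of 7040. Of the 384 higher genes 271 stood higher in the myelin-negative than in the myelin-positive cells of the libraries numbered 4. The calls included 9 of 10 myelin proteins (all but *Tspan2*), 6 of 11 compared genes of junctions and cytoskeleton and 2 of 14 of lipid synthesis as higher. Over all libraries only 2 of 10 myelin proteins (*Cldn11* and *Mal*), 1 of 10 compared junction genes and 1 of 14 lipid synthesis genes were higher. All 10 precursor genes and 5 transcription factors, *Sox10*, *Olig1*, *Olig2*, *Nkx2-2* and *Sox8*, were lower. Of the 20 genes that marked the whole annotation against every other type, 15 had the higher level in the myelin-negative cells, among them *Cdh1*, *Prg4* and *Slc47a1*, and 5 in the myelin-positive cells, among them *Opalin* and *Mog*. The OPC annotation held its own markers, at a summed 6586 CPM for the precursor list, together with 2031 CPM of the meningeal fibroblast list, both as means over the 6 OPC libraries numbered 1 or 4.

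With a ratio of at least 4, 196 of 6184 genes were lower in the OLG of the libraries numbered 2 than in those numbered 1 and 4 (3.17%) and 71 were higher (1.15%), or 445 (7.2%) and 256 (4.14%) with a ratio of at least 2. In the libraries numbered 4, 512 of 6242 genes were higher by that rule in myelin-positive than in myelin-negative OLG (8.2%) and 811 were lower (13%), and 124 of the 196 genes were among the 512. The 20 genes with the largest ratio, among them *Mobp*, *Tubb4a*, *Ermn*, *Mag*, *Gatm*, *Trf*, *Car2* and *Qdpr*, were all higher in the myelin-positive cells. Both contrasts use the libraries numbered 4, and those numbered 2 held no myelin-positive cells. Much of this overlap therefore follows from the choice of cells, as it does for *Mobp* and *Mag*, which helped to define the sets. Among myelin-negative cells alone 80 of 6048 genes were lower in the libraries numbered 2 (1.32%) and 61 were higher (1.01%). In ECs of the same libraries 29 of 5893 genes were lower (0.492%) and 25 higher (0.424%), and the call was shared for 8 of the 80 and 11 of the 61. *Jund*, a gene of the immediate early AP-1 factors, had a mean of 1357 CPM in myelin-negative cells of the libraries numbered 2 and 121 CPM in the others, and in ECs 5589 and 361 CPM. *Igfbp7* stood at 505 and 51.5 CPM in myelin-negative cells and 2187 and 187 CPM in ECs. *Klf2*, a flow-responsive factor of endothelium, stood at 900 and 194 CPM, and in ECs at 4084 and 934 CPM. These 3 genes were thus higher in both cell types of the batch.

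The share of OLG among all cells did not separate the conditions. It was 0.0812%, 0.962% and 0.506% in the young adult libraries numbered 1, 2 and 4, 0.213%, 0.691% and 0.418% in the aged and 0.147%, 0.607% and 0.437% in the exenatide-treated aged libraries. In each group the library numbered 2 was highest and that numbered 1 lowest, and the groups overlapped. The mean share was 0.517% ± 0.441 (SD, n = 3) in young adult, 0.441% ± 0.24 in aged and 0.397% ± 0.233 in exenatide-treated aged libraries. The difference of aged minus young adult was -0.0756 percentage points (exact two-sided permutation test, p = 0.9) and of exenatide-treated aged minus aged -0.0439 (p = 0.8), where 3 against 3 libraries cannot give less than 0.1. Neither direction was stable. The first difference was 0.147 without the young adult library numbered 2 and 0.0382 without the aged library numbered 1. The second was 0.0813 without the exenatide-treated aged library numbered 1 and 0.0812 without the aged library numbered 2. Fewer cells of a type and fewer recovered after the removal of myelin cannot be told apart.

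Myelin-positive OLG made up 0.0932% of the cells of the young adult library numbered 4 (14 of 15019, exact interval 0.051% to 0.156%), 0.109% of the aged (6 of 5497, 0.0401% to 0.237%) and 0.154% of the exenatide-treated aged library (18 of 11664, 0.0915% to 0.244%). The intervals overlapped. In the libraries numbered 1 the shares were 0.0135%, 0 and 0.0314%.

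**Figure D4:**
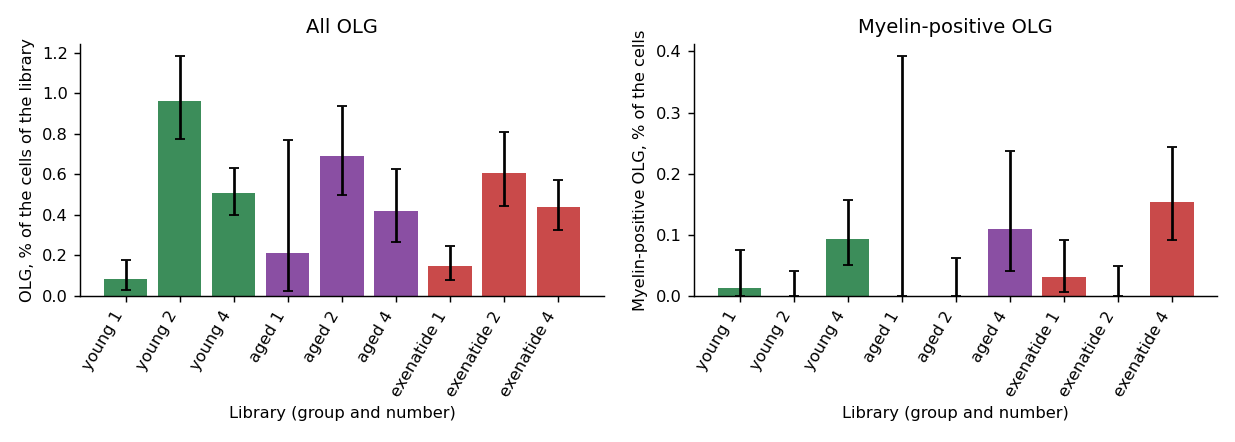
Share of the cells of each library annotated OLG (left) and of myelin-positive OLG (right), in percent, with exact binomial 95% intervals that cover counting error only. Bars are coloured by group; the libraries numbered 2 are highest in each group on the left and at 0 on the right.

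For the condition comparisons of expression, UMI counts were summed over all OLG of a library. The 4 libraries numbered 1 or 4 with at least 10 OLG cells were fitted together (1 young adult, 1 aged, 2 exenatide-treated aged), so that the single young adult and aged libraries are assumed to vary like the exenatide-treated aged ones. A differentially expressed gene (DEG) had an adjusted p below 0.05 and an absolute *lnFC* above 0.1. Between aged and young adult OLG no DEG was found among 2138 genes (0%), by edgeR or by DESeq2. Of the 10 myelin proteins, all tested, 7 had a positive *lnFC* and 3 a negative one, with a median *lnFC* of 0.25 against -0.01 over all genes. Myelin-positive cells made up 18.4% of the OLG of the young adult and 26.1% of the aged library, and 21.4% and 35.3% in the exenatide-treated aged libraries, and the part of this mixture in the *lnFC* was not tested. None of the 7 tested genes of the mature state, 8 of lipid synthesis or 10 immediate early genes passed the test, and their median *lnFC* was 0.40, 0.04 and -0.44. The 5 smallest p-values towards higher levels in aged OLG belonged to *Il33*, *Gm42418*, *Cyr61*, *Adamts1* and *Bclaf1*, and those towards lower levels to *C1qa*, *Trem2*, *Eif3f*, *Rgcc* and *Bri3*. All 6 microglial list genes had a negative *lnFC* (median -1.39), as had all 3 tested of the 6 astrocyte list genes (median -1.17), and none passed. The microglial list summed to 2015 CPM in the young adult and 579 CPM in the aged library, and the part of such RNA was not tested. *Il33*, which encodes an alarmin stored in oligodendrocyte nuclei, stood at 115 CPM in the young adult, 450 CPM in the aged and 126 and 492 CPM in the exenatide-treated aged libraries (aged against young adult *lnFC* = 1.35 ± 0.55, SE).

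Because library numbers pair the libraries by batch, a fit of all 7 libraries with the number as a term was also made, and it changed the count to 3 DEGs among 2029 genes (2 higher, 0.0986%, and 1 lower, 0.0493%). *Cd74*, the invariant chain of MHC class II, was higher in aged OLG (*lnFC* = 1.03 ± 0.2, SE, edgeR adjusted p = 0.00782). Its levels were 570 and 270 CPM in the young adult libraries numbered 2 and 4 and 1927 and 547 CPM in the aged, higher within both numbers. *H2-Ab1*, which encodes a chain of an MHC class II molecule, was also higher (*lnFC* = 1.79 ± 0.38, edgeR adjusted p = 0.0198), with 80.6 and 6.8 CPM in young adult and 510 and 48.3 CPM in aged OLG. These were 13 and 1 UMIs in young adult and 32 and 3 UMIs in aged OLG, so the pair numbered 4 stood near the floor. *Gja1*, the astrocyte connexin 43 gene, was lower (*lnFC* = -1.09 ± 0.23, edgeR adjusted p = 0.0198), with 353 and 1075 CPM in young adult and 127 and 338 CPM in aged OLG. The 6 genes of the astrocyte list summed to 991 and 2197 CPM in young adult and 398 and 1045 CPM in aged OLG, and the part of such RNA in the result was not tested. Neither *Cd74* nor *H2-Ab1* had a UMI in the myelin-positive cells of the libraries numbered 4. Macrophage markers summed to at most 51.7 CPM in any of the 7 myelin-negative libraries, against 5559 CPM in macrophages, and *Cd163* had no UMI. In the fit with the library number as a term all 6 microglial list genes had a negative *lnFC* (median -0.78), and none passed. The part of macrophage or microglial RNA in these calls was not tested.

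Between exenatide-treated aged and aged OLG, 1 DEG was found among 2138 genes (0.0468%). *C1qa*, a complement gene of microglia, was higher in exenatide-treated aged OLG (*lnFC* = 2.89 ± 0.67, SE, edgeR adjusted p = 0.0398), with 850 and 429 CPM in the exenatide-treated aged libraries and 32.2 CPM in the aged library. The call rested on that 1 aged library. Its partner numbered 2 had 207 CPM, and with all 7 libraries there was no DEG (edgeR adjusted p of *C1qa* 1, or 0.998 with the library number as a term) and none by DESeq2. All 6 microglial list genes had a positive *lnFC* (median 0.71), and 1 passed the test. With all 7 libraries and the library number as a term 3 were positive and 3 negative (median 0.20). The list summed to 579 CPM in the aged library and to 2990 and 1244 CPM in the exenatide-treated aged libraries, against 25946 CPM in microglia, with *C1qa* its most abundant gene and none of the 6 at 0 in all libraries. The part of microglial RNA in this result was not tested. *Ctss*, *C1qb* and *Tyrobp*, also microglial, and *Crip1* were among the 5 smallest p-values in the same direction and did not pass. Towards lower levels these were *Cyr61*, *Penk*, *Hes1*, *Arhgap5* and *Vps29*. *Cyr61*, a matricellular gene, stood at 499 CPM in the aged and at 94.4 and 62.6 CPM in the exenatide-treated aged libraries (*lnFC* = -1.9 ± 0.53, edgeR adjusted p = 0.375). Of the 10 myelin proteins 3 had a positive and 7 a negative *lnFC* (median -0.12 against 0.04 over all genes), and none passed. This direction turned with all 7 libraries, to 8 positive and 2 negative (median 0.14), or 7 and 3 (median 0.19) with the library number as a term. Both comparisons share the aged library.

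**Figure D5:**
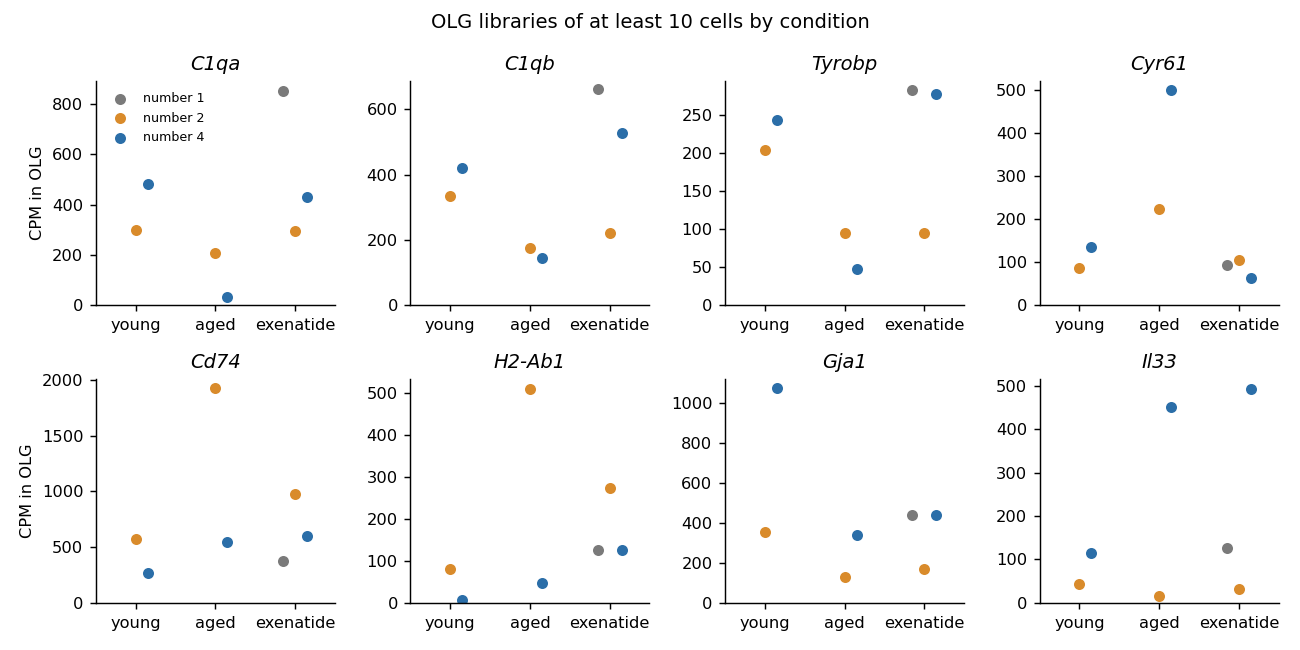
Levels in CPM (linear axis) of 8 genes of the condition comparisons in all OLG of the 7 libraries with at least 10 OLG cells. Each point is a library, coloured by its number; Cd74 and H2-Ab1 are higher in aged than in young adult OLG within the numbers 2 and 4, and C1qa is lowest in the aged library numbered 4. Within number 4, H2-Ab1 rests on 1 UMI in young adult and 3 UMIs in aged OLG.

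Myelin-negative OLG were also fitted alone over 7 libraries. Among 1472 genes no DEG was found between aged and young adult (0%, 18 at an unadjusted p below 0.05) or between exenatide-treated aged and aged (0%, 14) by edgeR, nor by DESeq2, and none with the library number as a term (54 and 36 at an unadjusted p below 0.05). *Cyr61* had the smallest unadjusted p among genes with a positive *lnFC* for age and among those with a negative one for exenatide, with 87 and 147 CPM in young adult, 223 and 668 CPM in aged and 111, 106 and 80.8 CPM in exenatide-treated aged libraries. The aged libraries were the 2 highest (aged against young adult *lnFC* = 1.33 ± 0.39, edgeR adjusted p = 0.999, and exenatide-treated aged against aged *lnFC* = -1.51 ± 0.38, edgeR adjusted p = 0.998). *Cd74* stood at 570 and 345 CPM in young adult, 1927 and 733 CPM in aged and 444, 973 and 902 CPM in exenatide-treated aged libraries (*lnFC* = 1.07 ± 0.34 for aged against young adult, edgeR adjusted p = 0.999). *Prg4* stood higher in all 3 exenatide-treated aged than in both aged libraries (*lnFC* = 0.53 ± 0.18, edgeR adjusted p = 0.998). Other genes named by p were *Prps2*, *S100a6*, *H2-Ab1*, *Htra1*, *Grcc10*, *Pcbp2* and *Morf4l2* with age, and *Lypd2*, *C1qa*, *Timm13*, *C1qb*, *Sparcl1*, *Prps2*, *Rdx* and *Chchd10* with exenatide.

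Myelin-positive OLG had 1 library of each group with more than 3 cells, all numbered 4, so no test was made between conditions and counts carry exact Poisson 95% intervals, which cover counting error only. *Trf*, which encodes the iron carrier transferrin, had 65 UMIs in the young adult, 67 in the aged and 137 in the exenatide-treated aged library, or 2034 CPM (1570 to 2593), 4251 CPM (3294 to 5398) and 3654 CPM (3068 to 4320). *Il33* had 12, 20 and 48 UMIs, or 376 CPM (194 to 656), 1269 CPM (775 to 1960) and 1280 CPM (944 to 1698). The young adult library was lowest for both, with intervals that did not reach those of the other libraries. The cells were unlike in their clusters, since 6 of the 14 young adult cells lay outside cluster 36, against 1 of 6 aged and 2 of 18 exenatide-treated cells, and the part of this in the levels was not tested. *Mbp*, *Mog* and *Cldn11* had overlapping intervals in all 3. *Serpina3n*, a gene of reactive oligodendrocytes, had 0 UMIs in each, which allows up to 93.9, 190.3 and 80.0 CPM (3 counts). The microglial list summed to 2692 CPM in the young adult, 63.4 CPM in the aged and 747 CPM in the exenatide-treated aged myelin-positive cells, and the astrocyte list to 3286, 1650 and 2107 CPM. Cells of 1 library are not replicates, and these differences have no check by a second library.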

How the data were processed

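The authors aligned 10x Chromium 3′ reads to mm10 with Cell Ranger 3.0.0 and clustered and annotated cells in Seurat 3.0.1, after removing cells of extreme depth or over 20% mitochondrial UMIs and clusters with the markers of more than one type. The deposited matrix holds natural log values made by the authors, of 1 plus 10000 times the UMI count over the total count of the cell. UMI counts were recovered from it and from the deposited total count per cell, and all 58404382 entries were whole within 1e-06. The mitochondrial share is deposited as a fraction. The design assumed counts, so its tests were kept.

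Counts were summed per library over OLG cells, and sums of at least 10 cells were tested with edgeR 4.0.16 (quasi-likelihood, robust, TMM, filterByExpr, Benjamini-Hochberg) in R 4.3.3, with DESeq2 1.42.0 as an alternative. The library is the replicate. Without word of separate preparation beyond the library, p-values measure the spread between libraries. Genes compared without a test had a mean of at least 20 CPM over both sides. CPM is not TMM-scaled. Doublets were not called here. Scripts were tested on simulated data.

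In the deposited table the numbers 1, 2 and 4 mark batches, and on this ground the numbers pair the libraries. In myelin-negative OLG, deviations from group means correlated at 0.319 to 0.425 between libraries of one number (6 pairs), but groups of 2 libraries have mirrored deviations, so these values are not independent.

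Members and gene lists (27 lists) were chosen with earlier results of these data known. Named genes are the list members, up to 10 DEGs per direction (with fewer than 5 DEGs, the 5 smallest p per direction), the 20 genes with the largest ratio to any other type at 100 CPM or more (repeated, after the data were seen, for each of the 2 sets below), and the 20 with the largest ratio between library numbers at 200 CPM or more. The division at 5 of 9 myelin genes and all results on its 2 sets were added after the data were seen, and *Mgp* was named after its values were seen. Results for some genes are not reported here. Gene positions are those of GENCODE M21 and promoter windows those of RefSeq.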

Additional observations from a re-analysis of the deposited data

How the results depend on the processing

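The designed fit of aged against young adult OLG gave 0 DEGs in either direction under each alternative that could be run but one, all 7 libraries with the library number as a term (replicate block), which gave 2 higher and 1 lower. The 1 DEG of exenatide-treated aged against aged OLG, *C1qa* (*lnFC* 2.89), was kept with sums of at least 5 cells, with RLE scaling and without the young adult library numbered 4 (1 DEG). It was lost, leaving 0, with all libraries (*lnFC* 1.43), with all libraries and the replicate block (1.12), by DESeq2 (2.96), without a filter on low counts (2.9) and in myelin-negative cells only (1.46). In myelin-negative OLG without the libraries numbered 2 it was again the 1 DEG. *Crip1* reversed with all libraries and the replicate block (-0.13). In myelin-negative OLG, leaving out each library gave 0 to 2 genes higher with age, the 2 (*Cd74* and *H2-Ab1*) without the aged library numbered 4, and 0 in the other counts. The replicate block could not be fitted to the 4 libraries of the designed fit, for want of residual degrees of freedom. Leaving out the young adult or the aged library emptied a group of a comparison, and leaving out an exenatide-treated library left no residual degrees of freedom. Of 406 gene values under an alternative, 397 kept their direction and side of the threshold. Only *C1qa* was a DEG among these genes in the main fits, so the others could change side only by becoming a DEG. Of the counts and share differences under an alternative, 95 stayed alike, 15 moved and 8 reversed. The cause of these changes was not tested.

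The share difference of aged minus young adult OLG was 0.0222 percentage points without the libraries numbered 2 and 0.000803 for myelin-positive cells alone, and ranged from -0.293 to 0.147 with 1 library left out. That of exenatide-treated aged minus aged was 0.0263 for cells with at least 3 of the 10 myelin proteins and 0.0255 for myelin-positive cells, and ranged from -0.158 to 0.0813. Within library numbers (replicate block) the differences were -0.0756 and -0.0439, with exact sign-flip p of 0.75 and 0.5. The 384 genes higher in OLG than in OPC became 242 with a ratio of at least 4 and 247 over all libraries. With a ratio of at least 2, 256 genes were higher and 445 lower in the libraries numbered 2, and with a ratio of at least 4 the 196 lower genes became 80 among myelin-negative cells. The 47 cells with at least 3 of 10 myelin proteins became 88 with at least 2, and 42 with at least 5.

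Depth limits what the 42 myelin-positive cells can show: their 5 libraries hold 2226 to 37491 UMIs, so that a gene without a UMI may stand at up to 80.0 CPM in the deepest of them.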
